A study of Arabidopsis thaliana with 48 samples.

Results

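Transcripts of 42 nuclear loci that encode light-harvesting and photosystem proteins were followed in seedlings of Arabidopsis thaliana, out of 33602 loci in the deposited table. The loci were taken by their locus identifiers. They comprise 6 LHCA loci (antenna of photosystem I), 14 LHCB loci (antenna of photosystem II), 12 PSA loci (subunits of photosystem I) and 10 PSB loci (subunits of photosystem II and PSBS). Shoots and roots were collected separately from seedlings kept for 18 days on agarose plates of modified Long Ashton medium at 22 °C, with 16 h of light, 8 h of dark and 100 µmol photons per square metre and second. The 4 genotypes were wild-type Col-0, the T-DNA line eil1 (AT2G27050, allele SALK_042113), the T-DNA line eil3 (AT1G73730, allele SALK_089129) and the double mutant eil3 eil1, so each mutated gene was represented by 1 allele. EIL1 acts in the ethylene pathway, and EIL3, also called SLIM1, acts in the response to sulfur limitation; both are transcription factors. Each genotype was grown with 0.75 mM MgSO4 (+S) or with 0.015 mM MgSO4 and 0.75 mM MgCl2 (-S), so that less sulfate and added chloride cannot be told apart. Each of the 16 combinations of genotype, sulfate and organ had 3 biological replicates.

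The light-harvesting proteins bind chlorophyll and pass the energy of absorbed light to the reaction centres of the photosystems in the thylakoid membrane. The reaction-centre cores are encoded in the chloroplast genome, whereas the antenna proteins and many small or peripheral subunits are encoded in the nucleus and imported. Transcripts of these nuclear genes are among the most abundant in green leaves, depend on light and on the state of the chloroplast, and are controlled in Arabidopsis by GOLDEN2-LIKE factors (GLK1 and GLK2), HY5 and phytochrome-interacting factors.

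Libraries held 27029088 to 37809216 estimated counts in shoots and 26615772 to 38269946 in roots. Values below are CPM, that is, counts scaled to library size, here by TMM within an organ, means are ± SD of n = 3 libraries, and changes are log2 fold changes ± an approximate SE from edgeR's quasi-likelihood test. A locus is said to have risen or fallen where its Benjamini-Hochberg adjusted p, taken over every locus in the fit, was under 0.05. The tissues carried the markers of their labels: 7 leaf genes from outside photosynthesis summed to 82.03 to 203 CPM in shoots and to 0.217 to 4.997 CPM in roots, and 9 root genes summed to 239 to 353 CPM in roots and to 2.08 to 12.8 CPM in shoots. EIL1 transcript was 102 ± 3.57 CPM in Col-0 +S shoots, 83.98 ± 5.06 CPM in those labelled eil1 and 45.6 ± 2.78 CPM in those labelled eil3 eil1. EIL3 transcript was 17.02 ± 0.954 CPM in Col-0 +S shoots, 17.2 ± 2.81 CPM in those labelled eil3 and 29.8 ± 1.38 CPM in those labelled eil3 eil1. EIL3 counts thus go against the shoot labels. In +S roots EIL1 and EIL3 transcripts together summed to 74.8 ± 0.387 CPM in Col-0 and 73.9 ± 2.53 CPM in eil1 as labelled. The sums were 69.4 ± 2.38 CPM in roots labelled eil3 and 37.4 ± 3.78 CPM in those labelled eil3 eil1. Mutant groups are named below as labelled, and counts over a gene that a T-DNA interrupts need not fall with its function. The root library labelled eil1 +S replicate 1 stood apart from the other root libraries, with 4953 CPM summed over the 42 loci, 1183 CPM over 9 Calvin-cycle genes and 4.997 CPM over the 7 leaf genes, against at most 2627, 478 and 1.301 CPM in the others. Results of eil1-labelled roots are given with and without it. It stayed in the main fit of the other comparisons within roots, where the spread was estimated over all root libraries together. Scaling by total counts in place of TMM moved the median of all loci to 0.09 to 0.25 on the log2 scale in the 4 shoot responses and split the called loci differently. It gave 5711 higher and 2453 lower loci in Col-0 shoots against 3677 and 3893 with TMM, 4148 and 2043 in eil1 against 3127 and 2790, 8837 and 1636 in eil3 against 3917 and 3599, and 9169 and 4535 in eil3 eil1 against 7057 and 6141.

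In sulfate-sufficient Col-0 shoots the 42 loci together took 16.4 ± 1.38% of all counts. Per length of the counted target, LHCB1.3 was the most abundant of all 33602 loci at 48919 ± 2709 TPM, a length-scaled abundance, followed by LHCB1.5 at 23518 ± 2379 TPM. LHCA4, LHCA3 and LHCA1 led the antenna of photosystem I with 7453 ± 559 TPM, 6762 ± 557 TPM and 6500.4 ± 592 TPM, and neighbours in this order did not differ beyond their spread. PSAG (6416 ± 447 TPM) and PSAF (5948 ± 648 TPM) led the photosystem I subunits and did not differ beyond their spread either. PSBR (8009.8 ± 569 TPM) and PSBX (6961 ± 626 TPM) led those of photosystem II. At the other end stood LHCA5 (191 ± 26.9 TPM), LHCA6 (108 ± 10.9 TPM) and LHCB4.3 (12.5 ± 1.47 TPM), the rare copy of the minor antenna protein CP29. Target lengths of 20 of the 42 loci were nearer to the length of the gene including introns than to the spliced length, so a level per length is understated for such genes. On counts per kilobase of spliced transcript LHCB1.3 and LHCB1.5 kept the first places and LHCA5, LHCA6 and LHCB4.3 the last, while PSAD1, a locus of 1 exon whose target of 835 bases was shorter than its annotated transcript of 1134 bases, moved from position 17 to 29 among the 42. PSBX moved from position 9 to 20, behind PSBO1 (16) and PSBW (18), while PSBR still led photosystem II. PSAG stood at 15, behind PSAF (12), PSAO (13) and PSAL (14), and LHCA1 (7) stood before LHCA3 (11). The order of these loci thus depended on the length used.

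Photosystem transcripts of shoots were lower on low sulfate in every genotype, least so in the libraries labelled eil1 and most so in those labelled eil3 eil1. The summed level of the 42 loci was 156707, 194796 and 181212 CPM in the 3 Col-0 +S libraries and 108756, 115579 and 97008 CPM in the -S libraries, without overlap. In the libraries labelled eil1 it was 155540, 151648 and 176595 CPM with sulfate and 123376, 135414 and 116821 CPM on low sulfate. The groups again did not overlap, but lay closer together. In those labelled eil3 the sums were 154958, 162101 and 189288 CPM with sulfate and 94753, 80358 and 66401 CPM on low sulfate. In those labelled eil3 eil1 they were 157145, 164544 and 148314 CPM with sulfate and 44749, 47184 and 46581 CPM on low sulfate, or 15.2 ± 0.455% against 5.06 ± 0.212% of all counts. The +S libraries of the 4 genotypes overlapped, while every -S library labelled eil3 eil1 lay below every other shoot library. In bulk tissue, fewer green cells and less RNA of these genes per cell cannot be told apart.

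**Figure D1:**
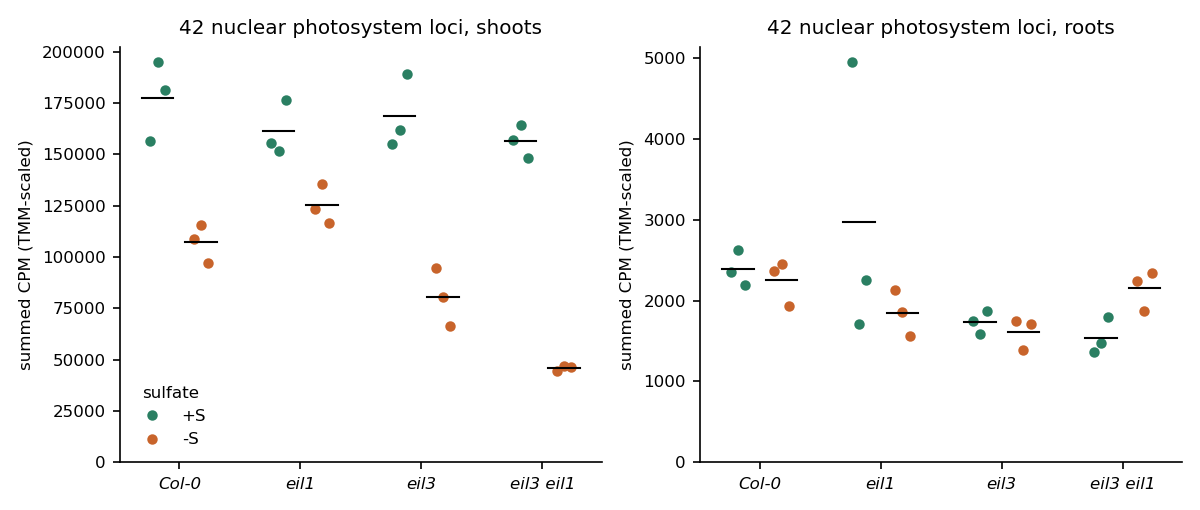
Summed level of the 42 loci in each library, in CPM on linear axes, with shoots and roots in separate panels; points are single libraries, green for +S and orange for -S, and lines are means of 3. In shoots labelled eil3 eil1 the -S libraries lie between 44749 and 47184 CPM, below all other shoot libraries, and in roots 1 eil1-labelled +S library stands at 4953 CPM.

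Counted locus by locus in shoots, 40 of the 42 fell and 0 rose in Col-0, where 17.9% of the 21697 loci tested fell. In shoots labelled eil1, 21 of 42 fell and 0 rose, against 12.9% of all loci. All 42 fell in shoots labelled eil3, against 16.6% of all loci, and all 42 fell in shoots labelled eil3 eil1, against 28.3%. The median log2 change over the 42 was -0.56 in Col-0, -0.33 in eil1, -0.98 in eil3 and -1.65 in eil3 eil1 as labelled, whereas the median over all loci tested lay between 0.00 and 0.02. For 39 of the 42 loci the change deepened in the order eil1, Col-0, eil3, eil3 eil1, and the exceptions were LHCA5, LHCA6 and LHCB4.3. Every one of the 42 had its deepest change in the libraries labelled eil3 eil1. Across the 42 loci the changes of Col-0 and of eil3-labelled shoots had a Spearman rho of 0.82, those of Col-0 and eil3 eil1 of 0.66 and those of Col-0 and eil1 of 0.50; the loci share libraries and are not independent points. The eil1 count rests on single libraries: it was 3 without -S replicate 3, 6 without +S replicate 3 and 12 without -S replicate 1.

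**Figure D2:**
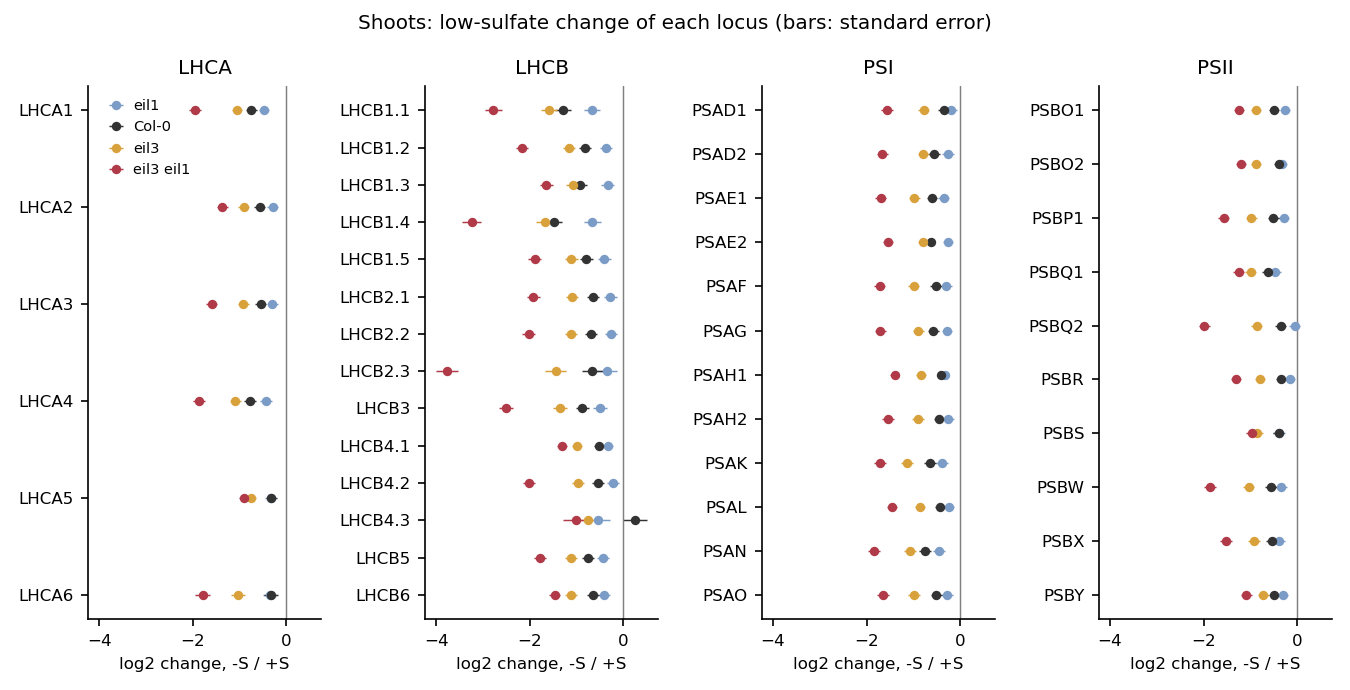
Log2 change of each of the 42 loci between -S and +S shoots, grouped by role; points are the 4 genotypes as labelled and bars are SE. The eil3 eil1 point is the lowest at every locus, with LHCB2.3 at -3.77, and in Col-0 LHCB4.3 is the one locus above 0, at 0.26.

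With sulfate, no genotype differed from Col-0 at any of these loci by edgeR. The counts were 0 of 42 in +S shoots labelled eil1, eil3 and eil3 eil1, where 1.26%, 7.13% and 7.54% of all loci differed. At an unadjusted p under 0.05 the numbers were 0, 0 and 3, against 14.6%, 21.5% and 21.6% of all loci, and DESeq2 called 0, 0 and 1. The difference farthest from 0 was that of LHCB1.1 in shoots labelled eil3 eil1, at -0.52 ± 0.17 (adjusted p = 0.067), with an approximate 95% interval of -0.85 to -0.19. On low sulfate all 42 loci were lower in shoots labelled eil3 eil1 than in Col-0 (median log2 difference -1.20, against 26.1% of all loci lower). In shoots labelled eil3, 32 of 42 were lower than in Col-0 on low sulfate (median -0.40, against 8.69% of all loci lower). In those labelled eil1, 0 of 42 differed by edgeR and 0 by DESeq2, where 0.53% of all loci did, and 6 of the 42 had an unadjusted p under 0.05, the same share as the 14.3% of all loci. The eil3 count of 32 changed with single libraries and with the scaling: it was 3 without eil3-labelled replicate 3, 10 without eil3-labelled replicate 2, 7 without Col-0 replicate 2, 9 without Col-0 replicate 1 and 21 with total-count scaling.

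The genotype difference in the response itself was tested by interaction terms. The response of shoots labelled eil3 eil1 was more negative than in Col-0 at all 42 loci, with a median difference of -1.10, where 16.9% of all loci had a more negative response. In shoots labelled eil3, 0 of 42 passed by edgeR (1.78% of all loci did), 30 had an unadjusted p under 0.05 (15.3% of all loci did) and DESeq2 called 8, all more negative; the edgeR count was 11 without eil3-labelled -S replicate 1. In shoots labelled eil1, 0 of 42 passed (0.023% of all loci did), 7 had an unadjusted p under 0.05 (8.71% of all loci did) and DESeq2 called 0. The median differences from the Col-0 response were -0.43 in eil3 and 0.25 in eil1, so the deeper and the shallower response of these lines were not called at any locus by edgeR. These comparisons share the Col-0 libraries.

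The LHCB proteins form the antenna of photosystem II. LHCB1, LHCB2 and LHCB3 build the trimers of LHCII, and LHCB4 (CP29), LHCB5 (CP26) and LHCB6 (CP24) are the minor antenna proteins between the trimers and the core. In Col-0 shoots 13 of the 14 loci fell on low sulfate, with a median of -0.72, and in shoots labelled eil3 eil1 all 14 fell, with a median of -1.97. Among all loci tested 17.9% and 28.3% fell. LHCB1.3 (AT1G29930), the locus with most counts, had 29019, 33500.4 and 29192 CPM in Col-0 +S shoots and 16283, 18156 and 14061 CPM in -S shoots. Under eil3 eil1 labels it had 25199.5, 28536 and 24162 CPM with sulfate and 7812, 7901 and 9194 CPM on low sulfate. Its change was -0.92 ± 0.13 in Col-0 (adjusted p = 2.4e-05) and -1.65 ± 0.14 in eil3 eil1 (adjusted p = 2.8e-09), and in neither did the sulfate groups overlap. LHCB1.4 (AT2G34430), another LHCB1 copy, had 6863, 8410.5 and 7611 CPM in Col-0 +S shoots and 2843, 3048 and 2303 CPM in -S shoots. This was the deepest Col-0 change of the 42, at -1.48 ± 0.18 (adjusted p = 3.1e-06). With eil3 eil1 labels it went from 5844, 8050.4 and 6786 CPM to 615, 719 and 851 CPM, a change of -3.24 ± 0.19 with no overlap. LHCB1.2 (AT1G29910) changed by -0.81 ± 0.13 in Col-0, from 5494, 6771 and 6098 CPM to 3457, 3757 and 3271 CPM. In eil3 eil1 it changed by -2.17 ± 0.13, from 5106, 5216 and 4852 CPM to 1087, 1185 and 1112 CPM. The groups did not overlap in either, and the responses differed by -1.36 ± 0.18 (adjusted p = 6.2e-06).

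LHCB2.3 (AT3G27690), 1 of the 3 copies of LHCB2, showed the deepest change of all. It had 484, 743 and 781 CPM in Col-0 +S shoots and 433, 433 and 406 CPM in -S shoots. These groups lay close to each other without overlap, with a change of -0.66 ± 0.22 (adjusted p = 0.022) that lost its call without any 1 of 3 libraries. Its eil3 libraries went from 530.3, 802 and 718 CPM to 314, 262 and 176 CPM. Its eil3 eil1 libraries went from 611, 612 and 662 CPM to 43.2, 61.6 and 33.6 CPM, a change of -3.77 ± 0.24 or 13.6-fold lower (adjusted p = 1.1e-10). The responses of eil3 eil1 and Col-0 differed by -3.11 ± 0.31 (adjusted p = 2.6e-07), the smallest interaction p of the 42. LHCB3 (AT5G54270) went from 5448, 7296 and 7178 CPM to 3664, 3928 and 3295 CPM in Col-0. With eil3 eil1 labels it went from 5532, 6077 and 5667 CPM to 951, 1111 and 977 CPM, again with no overlap in either. Its difference between the responses was -1.64 ± 0.21 (adjusted p = 3.9e-06). LHCB5 (AT4G10340) and LHCB6 (AT1G15820) changed by -0.75 ± 0.12 and -0.64 ± 0.12 in Col-0.

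The copies of LHCB4 differed from each other in level and change. LHCB4.2 (AT3G08940) had 2127, 2855 and 2772 CPM in Col-0 +S shoots and 1857, 1917 and 1597 CPM in -S shoots, and it went from 2259.8, 2350.3 and 2174 CPM to 502, 628 and 546 CPM with eil3 eil1 labels. Neither pair of groups overlapped, and the responses differed by -1.49 ± 0.18 (adjusted p = 2.6e-06). LHCB4.3 (AT2G40100) was the one locus of the 42 with a positive change in Col-0, where it had 12.8, 11.98 and 14.7 CPM with sulfate and 17.4, 13.8 and 15.9 CPM on low sulfate. These groups overlapped, and the change of 0.26 ± 0.26 did not pass (adjusted p = 0.48). LHCB4.3 in shoots labelled eil3 eil1 had 17.6, 8.34 and 7.82 CPM with sulfate and 5.85, 6.72 and 4.28 CPM on low sulfate, a change of -1.01 ± 0.27 (adjusted p = 0.0031). That call was lost without +S replicate 1, the highest library, and the call in shoots labelled eil3 (-0.74 ± 0.27) was lost without any 1 of 4 of its 6 libraries.

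The LHCA proteins form the antenna of photosystem I, where LHCA1 with LHCA4 and LHCA2 with LHCA3 bind as pairs. LHCA5 and LHCA6 are scarce relatives known in Arabidopsis for joining photosystem I to the NDH complex. Of the 6 loci 5 fell in Col-0 shoots, 3 in those labelled eil1 (LHCA1, LHCA4 and LHCA5) and all 6 in those labelled eil3 eil1, with medians of -0.56, -0.34 and -1.69. Of all loci 17.9%, 12.9% and 28.3% fell. In eil1 LHCA4 lost its call without any 1 of 2 libraries and LHCA5 without any 1 of 4. All 6 had an unadjusted p under 0.05 in eil1, as did 8243 of all 21697 loci. LHCA4 (AT3G47470) had 7264, 8857 and 8691 CPM in Col-0 +S shoots and 5035, 5052 and 4427 CPM in -S shoots, without overlap, a change of -0.77 ± 0.12 (adjusted p = 4.7e-05). Under eil3 eil1 labels it went from 7266, 7349 and 6855 CPM to 1889.7, 2066 and 1921 CPM, a change of -1.87 ± 0.12. LHCA1 (AT3G54890) went from 5956, 7650.4 and 7097 CPM to 4267, 4227 and 3823 CPM in Col-0. Both loci of this pair thus had lower values in every -S library than in any +S library. With eil3 eil1 labels LHCA1 went from 6299.8, 6381 and 5753 CPM to 1519, 1652 and 1601 CPM, and the responses differed by -1.20 ± 0.16 (adjusted p = 9.3e-06). LHCA6 (AT1G19150) had 71.97, 83.7 and 91.6 CPM in Col-0 +S shoots and 63.8, 70.9 and 62.8 CPM in -S shoots. These ranges just parted, and the change of -0.32 ± 0.15 did not pass (adjusted p = 0.097). LHCA6 in shoots labelled eil3 eil1 went from 99.4, 80.8 and 69.6 CPM to 23.1, 27.1 and 21.9 CPM, a change of -1.79 ± 0.15. LHCA5 (AT1G45474) had the shallowest change of the 42 there, -0.90 ± 0.12, from 163, 149.6 and 126 CPM to 82.8, 81.2 and 71.5 CPM. In Col-0 LHCA5 changed by -0.32 ± 0.11, from 118, 163 and 159.9 CPM to 115, 128 and 109 CPM, with overlapping groups and a call that was lost without any 1 of 4 libraries.

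The nuclear PSA subunits surround the core of photosystem I: PSAD and PSAE dock ferredoxin on the stromal side, PSAF and PSAN face plastocyanin in the lumen, and PSAG, PSAH, PSAK, PSAL and PSAO are membrane subunits near the antenna. All 12 fell in Col-0, between -0.75 ± 0.13 for PSAN and -0.35 ± 0.12 for PSAD1, where 17.9% of all loci fell. All 12 also fell in shoots labelled eil3 eil1, between -1.85 ± 0.13 for PSAN and -1.40 ± 0.10 for PSAH1, against 28.3% of all loci. PSAF (AT1G31330), with the most counts, went from 3803, 5047 and 4700.1 CPM to 3217, 3368 and 2878 CPM in Col-0 (-0.52 ± 0.12, adjusted p = 0.0022). With eil3 eil1 labels it went from 4321, 4640.5 and 4106 CPM to 1250.4, 1390.4 and 1321 CPM (-1.72 ± 0.12). All its -S libraries lay below its +S libraries in both. PSAN (AT5G64040) went from 1766, 2338 and 2303 CPM to 1300.2, 1364 and 1143 CPM in Col-0 (adjusted p = 1.4e-04), a clear gap. PSAD1 (AT4G02770) went from 1802, 2387 and 2271 CPM to 1713, 1799.6 and 1571 CPM in Col-0, where the highest -S library reached almost to the lowest +S library (adjusted p = 0.032, lost without any 1 of 4 libraries). In eil3 eil1 PSAD1 went from 2181, 2084 and 1949.8 CPM to 703, 757 and 647 CPM, a change of -1.56 ± 0.12. In shoots labelled eil1, 4 of the 12 fell, namely PSAE1, PSAH1, PSAK and PSAN, where 12.9% of all loci fell. PSAE1 lost that call without any 1 of 4 libraries, PSAH1 and PSAK without any 1 of 3, and PSAN without 1. At an unadjusted p under 0.05 there were 11 of the 12, and 8243 of all 21697 loci.

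PSBO, PSBP and PSBQ are the extrinsic proteins that shield the oxygen-evolving cluster of photosystem II, PSBR, PSBW, PSBX and PSBY are small subunits, and PSBS is needed for the rapid quenching of excess light energy. All 10 loci fell in Col-0 (median -0.50) and all 10 fell in shoots labelled eil3 eil1 (median -1.28). Among all loci tested 17.9% and 28.3% fell. PSBO1 (AT5G66570) went from 4580.4, 5808 and 5411 CPM to 3786, 3953 and 3388 CPM in Col-0 (-0.51 ± 0.11, adjusted p = 9.6e-04). With eil3 eil1 labels it went from 5175, 5114 and 4457 CPM to 2033, 2166 and 2044 CPM (-1.24 ± 0.11). PSBR (AT1G79040), with the shallowest Col-0 change of the 10, went from 4161, 5142 and 4787 CPM to 3891, 3645 and 3508 CPM (-0.35 ± 0.11, adjusted p = 0.014). Its groups parted narrowly, and the call was lost without +S replicate 2 or -S replicate 3. PSBS (AT1G44575) showed the smallest difference between the responses of eil3 eil1 and Col-0 among the 42, -0.56 ± 0.18 (adjusted p = 0.018), and lost that call without any 1 of 3 libraries. The PSBQ copies parted in eil3 eil1. PSBQ2 (AT4G05180) went from 1776, 2219.9 and 2221 CPM to 1693, 1692 and 1472 CPM in Col-0 (-0.36 ± 0.12). In eil3 eil1 it went from 1903, 2014 and 2038 CPM to 479, 546 and 482 CPM (-1.98 ± 0.13), and the responses differed by -1.63 ± 0.17 (adjusted p = 4.5e-07). The eil3 eil1 groups of PSBQ2 lay far apart and those of Col-0 close together. PSBQ1 (AT4G21280) went from 973, 1192 and 1201 CPM to 736, 788 and 648 CPM in Col-0 (-0.63 ± 0.12, adjusted p = 3.8e-04). In eil3 eil1 it went from 1156, 1058 and 1014 CPM to 452, 454 and 447 CPM (-1.25 ± 0.12).

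Several of these proteins are encoded by duplicate loci, and the share of each copy in the counts of its set does not depend on library scaling. For the pairs of PSAD, PSAE, PSAH and PSBO the group means of a copy stayed within 4 percentage points across the 8 shoot groups. The copies of LHCB1, LHCB2, LHCB4 and PSBQ shifted further in shoots labelled eil3 eil1. LHCB1.4 went from 12.1 ± 1.31% to 5.05 ± 0.518% of LHCB1 counts, while LHCB1.3 went from 45.8 ± 0.333% to 57.7 ± 2.17%. In Col-0 LHCB1.4 went from 11.1 ± 0.212% to 7.82 ± 0.317%, also without overlap. LHCB2.3 held 10.14 ± 0.814% of LHCB2 counts with sulfate and 3.09 ± 0.703% on low sulfate in eil3 eil1, but 9.997 ± 1.06% and 10.14 ± 0.47% in Col-0. LHCB4.2 held 35.5 ± 1.28% and 24.98 ± 1.91% of LHCB4 counts in eil3 eil1 and 36.98 ± 2.11% and 37.01 ± 0.461% in Col-0. The PSBQ1 share moved in opposite directions: it went from 35.2 ± 2.36% to 47.4 ± 1.69% in eil3 eil1 and from 35.1 ± 0.232% to 30.9 ± 0.786% in Col-0, with no overlap of libraries in either. These shares are descriptions and were not tested. Reads can be split wrongly between near-identical copies, chiefly LHCB1.1, LHCB1.2 and LHCB1.3, and LHCB2.1 and LHCB2.2. With the first 3 summed into 1 row the changes were -0.97 ± 0.14 in Col-0 and -1.86 ± 0.14 in eil3 eil1, and with LHCB2.1 and LHCB2.2 summed they were -0.66 ± 0.13 and -1.97 ± 0.14.

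**Figure D3:**
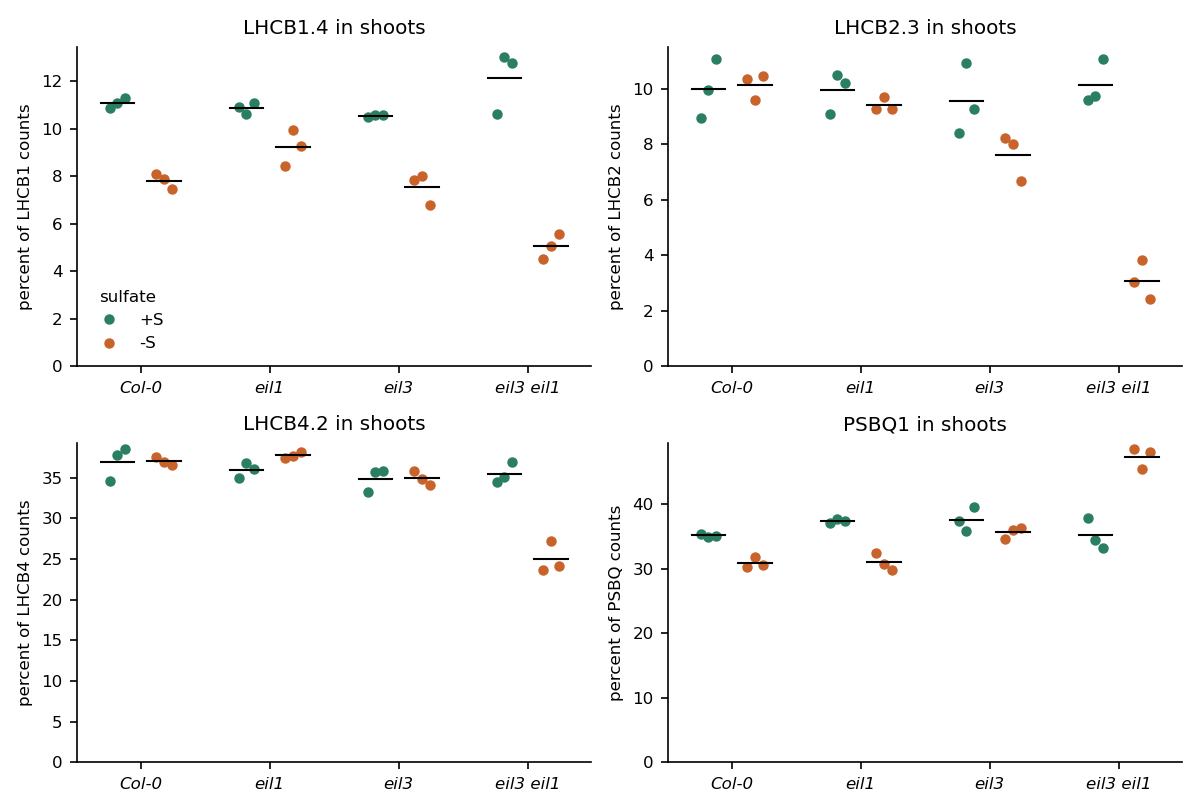
Share of 1 copy in the counts of its gene set in shoots, in percent, for LHCB1.4, LHCB2.3, LHCB4.2 and PSBQ1; points are single libraries by genotype as labelled, green for +S and orange for -S, and lines are means of 3. In eil3 eil1 the -S mean of PSBQ1 rises to 47.4% and that of LHCB2.3 drops to 3.09%.

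The upstream regions of the LHCB2 and LHCB4 copies are shown because these copies responded to different extents. Each is the 250 bases before the annotated gene start in RefSeq's TAIR10.1 assembly, written on the strand of the gene. They lie at chr2:1824481-1824730 (minus strand) for LHCB2.1, chr2:1800473-1800722 (minus strand) for LHCB2.2, chr3:10255656-10255905 (plus strand) for LHCB2.3, chr5:208616-208865 (plus strand) for LHCB4.1, chr3:2717307-2717556 (plus strand) for LHCB4.2 and chr2:16745378-16745627 (plus strand) for LHCB4.3. Capitals mark matches on either strand to CACGTG (the G-box of light-regulated promoters), GATAAG (the I-box), CCAATC (a sequence with a CCAAT core, found upstream of GLK-responsive genes in Arabidopsis) or ATGTANCT (a form of the site of EIN3-type factors).
LHCB2.1: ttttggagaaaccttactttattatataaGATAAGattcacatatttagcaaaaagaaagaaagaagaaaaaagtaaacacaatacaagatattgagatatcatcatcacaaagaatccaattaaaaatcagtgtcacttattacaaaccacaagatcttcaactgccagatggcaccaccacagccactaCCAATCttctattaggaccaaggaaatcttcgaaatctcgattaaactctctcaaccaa
LHCB2.2: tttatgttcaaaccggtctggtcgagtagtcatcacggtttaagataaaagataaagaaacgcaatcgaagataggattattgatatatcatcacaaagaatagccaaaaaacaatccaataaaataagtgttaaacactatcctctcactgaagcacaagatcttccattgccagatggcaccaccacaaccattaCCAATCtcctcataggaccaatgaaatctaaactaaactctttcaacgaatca
LHCB2.3: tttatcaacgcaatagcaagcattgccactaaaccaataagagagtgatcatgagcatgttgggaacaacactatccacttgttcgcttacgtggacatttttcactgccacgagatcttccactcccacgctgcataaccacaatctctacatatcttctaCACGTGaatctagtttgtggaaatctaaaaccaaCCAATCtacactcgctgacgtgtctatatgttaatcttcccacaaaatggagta
LHCB4.1: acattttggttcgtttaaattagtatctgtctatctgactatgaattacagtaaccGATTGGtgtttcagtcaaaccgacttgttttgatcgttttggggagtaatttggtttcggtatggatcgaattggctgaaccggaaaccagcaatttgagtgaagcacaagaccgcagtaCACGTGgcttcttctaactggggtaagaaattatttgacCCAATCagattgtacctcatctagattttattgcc
LHCB4.2: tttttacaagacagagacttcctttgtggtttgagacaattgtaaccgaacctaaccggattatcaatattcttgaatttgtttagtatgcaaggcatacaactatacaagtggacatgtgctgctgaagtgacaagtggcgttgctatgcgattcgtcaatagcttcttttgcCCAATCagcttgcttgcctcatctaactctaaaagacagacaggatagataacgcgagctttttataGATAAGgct
LHCB4.3: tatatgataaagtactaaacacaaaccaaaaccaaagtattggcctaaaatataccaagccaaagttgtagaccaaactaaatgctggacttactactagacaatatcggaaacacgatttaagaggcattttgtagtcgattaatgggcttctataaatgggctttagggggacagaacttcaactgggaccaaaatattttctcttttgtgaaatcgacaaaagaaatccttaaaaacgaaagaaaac
The LHCB2.3 window holds the G-box and CCAATC, LHCB2.1 the I-box and CCAATC, and LHCB2.2 CCAATC alone. LHCB4.1 holds the G-box and CCAATC, LHCB4.2 the I-box and CCAATC, and LHCB4.3 none of the 4. Among the 42 windows the G-box occurred in 8 (19%), against 6.49% of 27443 windows of the same length before annotated nuclear protein-coding genes. CCAATC occurred in 11 (26.2%, against 10.2%), namely in 7 of 14 LHCB, 3 of 6 LHCA, 0 of 12 PSA and 1 of 10 PSB windows. The I-box occurred in 9 (21.4%, against 12.3%). ATGTANCT occurred in 3 (7.14%, against 3.63%), LHCA2, LHCA4 and PSBP1. The windows of LHCB1.1, LHCB1.2 and LHCB1.4 hold none of the 4 sequences. A match describes these letters and not a site in use.

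Genes that serve the photosystems were mostly lower as well in shoots. Of 13 nuclear genes of electron transport and the ATP synthase, 12 fell in Col-0 and 12 in shoots labelled eil3 eil1, where 17.9% and 28.3% of all loci fell (medians -0.52 and -1.06). PETM, a cytochrome b6f subunit, changed by -0.73 ± 0.12 in Col-0 and by -0.90 ± 0.12 in eil3 eil1. PGR5, of cyclic electron flow, changed by -0.57 ± 0.09 and -0.57 ± 0.09, and FD2, the main leaf ferredoxin, by -0.74 ± 0.13 and -1.48 ± 0.13. Of 16 chlorophyll-synthesis genes 15 fell in Col-0 and 15 in eil3 eil1 (medians -0.60 and -0.99). HEMA1, which encodes glutamyl-tRNA reductase, changed by -0.84 ± 0.09 and -0.71 ± 0.09. CRD1, of the cyclase step, changed by -0.78 ± 0.11 and -1.18 ± 0.11, and CHLM, the methyltransferase, by -0.71 ± 0.11 and -1.07 ± 0.11. PORA, a protochlorophyllide oxidoreductase named after its values were seen, changed by -1.22 ± 0.24 in Col-0 and by -4.62 ± 0.32 in eil3 eil1. Of 5 genes for inserting light-harvesting proteins 5 fell in Col-0 and 4 in eil3 eil1, among them LTD by -0.73 ± 0.11 and -0.97 ± 0.11. The responses of eil3 eil1 and Col-0 differed, toward lower values, at 10 of 13 electron-transport, 6 of 16 chlorophyll and 1 of 5 insertion genes, against 16.9% of all loci. Toward higher values they differed at 1 of 5 insertion genes, against 20% of all loci, so that the insertion counts lay near the share of all loci in both directions. All 9 Calvin-cycle genes fell in both, with medians of -0.70 and -1.43.

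Regulators of these genes did not share 1 direction. Of 11 measured, 1 rose and 0 fell in Col-0 shoots, and 2 rose and 6 fell in shoots labelled eil3 eil1. Of all loci 16.9% rose and 17.9% fell in Col-0, and 32.5% rose and 28.3% fell in eil3 eil1. The counts of regulators that rose were not above these shares. GLK1 rose in Col-0 (0.58 ± 0.14) and in eil1-labelled shoots (0.71 ± 0.14) and fell in those labelled eil3 eil1 (-0.80 ± 0.14), and the responses of eil3 eil1 and Col-0 differed by -1.39 ± 0.20 (adjusted p = 1.8e-05). GLK2 was at -0.08 ± 0.14 in Col-0 and changed by -0.92 ± 0.14 in eil3 eil1. CGA1, a GATA factor of chloroplast development, rose by 1.36 ± 0.22 in eil3 and by 1.71 ± 0.22 in eil3 eil1 as labelled. Of 8 light-stress relatives of the antenna family 5 fell and 1 rose in Col-0. The latter, ELIP1, an early light-induced protein, rose by 1.12 ± 0.29, while OHP1, a one-helix protein, changed by -0.68 ± 0.11. GLK2, CGA1 and ELIP1 were named after their values were seen. Of 7 chloroplast-encoded photosystem genes 1 rose in Col-0, psbA at 1.56 ± 0.57 (adjusted p = 0.037), and 0 changed in eil3 eil1. The count in Col-0 lay near the share of all loci that rose, and mRNA libraries capture chloroplast transcripts poorly. The 7 leaf genes from outside photosynthesis moved as well: 4 fell in Col-0 and 7 in eil3 eil1 (median -0.99), where their sum was 82.03 to 91.97 CPM on low sulfate against 188 to 197 CPM with sulfate, none of them at 0. KAT1, a potassium channel of guard cells, changed by -3.03 ± 0.26 there. The 9 root genes summed to 2.08 to 3.13 CPM in those -S shoots and to 5.63 to 8.23 CPM in the +S shoots, none at 0 in all libraries, and 7 of 9 fell. The part of tissue composition in the photosystem result was not tested.

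**Figure D4:**
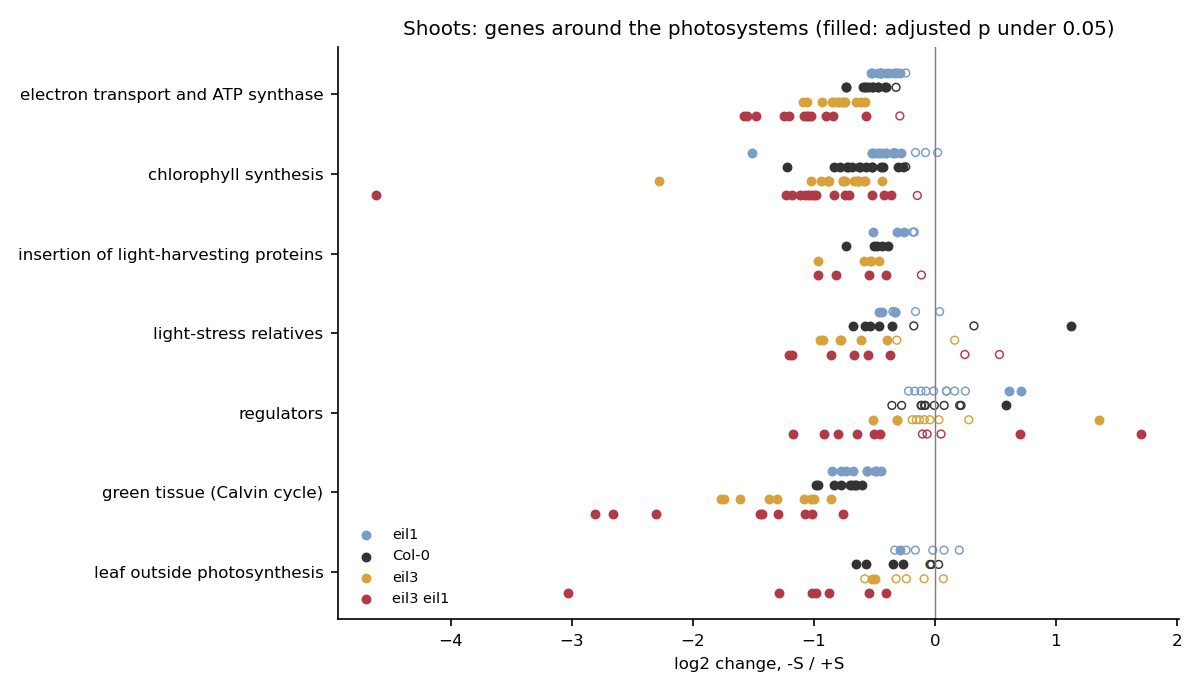
Log2 change between -S and +S shoots of single genes in lists around the photosystems, for the 4 genotypes as labelled; filled points had an adjusted p under 0.05 and open points did not. Most genes of electron transport and chlorophyll synthesis lie below 0, PORA lies at -4.62 in eil3 eil1, and the regulators lie on both sides of 0.

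In roots the 42 loci were measured at far lower levels. All 42 were lower in Col-0 +S roots than shoots, with a median log2 difference of -6.64, where 35.9% of 22301 loci tested were lower. With total-count scaling all 42 were lower as well, with a median of -6.08. LHCB4.3 differed least. It had 4.998, 6.08 and 4.22 CPM in roots against 12.8, 11.98 and 14.7 CPM in shoots. The fit over both organs gave a difference of -1.81 ± 0.14. CPM were scaled within each organ, so their ratio does not equal the difference from that fit. LHCB1.4 differed most among the 42, with 0.564, 1.21 and 0.104 CPM in roots against 6863, 8410.5 and 7611 CPM in shoots. LHCB1.5 (AT2G34420), its neighbour on chromosome 2, had 361, 341 and 266 CPM in the same roots. In all 24 root libraries LHCB1.5 lay between 219 and 517 CPM, so these copies differed in how far they were measured outside the shoot. LHCB1.4 lay at or under 3.34 CPM in all but 2 root libraries, eil1-labelled +S replicate 1 with 117 CPM and Col-0 -S replicate 2 with 12.7 CPM. LHCB1.1 (AT1G29920) was highest in the same libraries, at 178 and 24.5 CPM.

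No change of the 42 loci was called in Col-0 roots on low sulfate: 0 of the 41 tested passed by edgeR, where 9.03% of 21954 loci did, with 1 at an unadjusted p under 0.05 (21.7% of all loci), and DESeq2 called 1 higher. Their median change was -0.06. LHCA6 was too low for testing in roots. The contrast between organs was itself tested in Col-0, and 10 of 42 loci had a more positive response in roots than in shoots (5.97% of all loci did). They were LHCA1, LHCA4, LHCB1.1, LHCB1.2, LHCB1.4, LHCB1.5, LHCB3, LHCB5, LHCB6 and PSAE1. In Col-0 roots LHCB1.4 had 0.564, 1.21 and 0.104 CPM with sulfate and 3.34, 12.7 and 0.158 CPM on low sulfate. LHCB1.1 had 4.595, 5.38 and 2.14 CPM and 11.1, 24.5 and 2.79 CPM, so the groups of both overlapped. Both were highest in -S root replicate 2, where the leaf genes summed to 1.301 CPM. Only eil1-labelled +S root replicate 1 had a higher sum. A link to these calls was not tested. LHCB6 differed by 0.61 ± 0.17 (adjusted p = 0.034) and LHCA1 by 0.64 ± 0.18 (adjusted p = 0.036). The count depended on single libraries. It was 1 without +S root replicate 3 or -S root replicate 2, and 2 without any 1 of +S shoot replicates 2 and 3, -S shoot replicates 1 and 3, +S root replicate 1 and -S root replicate 1. It was 6 without -S shoot replicate 2, 16 without -S root replicate 3, 19 without +S shoot replicate 1 and 6 with total-count scaling.

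In roots labelled eil1, 5 of 41 loci fell (0.834% of all loci did), LHCB1.1, LHCB1.2, LHCB1.4, LHCB2.2 and LHCB2.3, and the median of the 41 was -0.75. Without the +S library that stood apart 0 fell and the median was -0.11. Without any 1 of the 3 -S libraries 0 fell as well, and 35 and 12 fell without +S replicate 2 or 3. In roots labelled eil3 0 of 41 passed by edgeR (1.06% of all loci did), with 0 at an unadjusted p under 0.05 (9.88% of all loci) and 0 by DESeq2. The root responses of eil1 and of eil3 differed from that of Col-0 at 0 of 41 loci each by edgeR, where 0.383% and 0.943% of all loci did; 15 and 0 had an unadjusted p under 0.05 (7.77% and 10.4% of all loci), and DESeq2 called 2 and 0. Without the +S library that stood apart, 1 of 41 had an unadjusted p under 0.05 for eil1, and the median difference from the Col-0 response went from -0.70 to -0.06; DESeq2 was not run without it.

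In roots labelled eil3 eil1 the signs were opposite to those in shoots. The change was positive at all 41 loci, with a median of 0.55, and 2 rose, where 2.2% of all loci did. The spread in this fit included the eil1-labelled +S library that stood apart. With the compared groups alone more loci were called, as given in the closing section. The median over all loci tested was -0.0015. At 23 of the 41 loci every -S library lay above every +S library, against 10.8% of all loci tested. LHCB4.3 went from 4.24, 4.41 and 4.87 CPM to 10.6, 8.14 and 12.2 CPM, without overlap (1.19 ± 0.17, adjusted p = 1.2e-04). In Col-0 roots it went from 4.998, 6.08 and 4.22 CPM to 7.69, 6.54 and 7.54 CPM, also without overlap, but the change did not pass (0.51 ± 0.17, adjusted p = 0.062). The responses of eil3 eil1 and Col-0 roots were not shown to differ at LHCB4.3 (0.68 ± 0.23, adjusted p = 0.12) or at PSBS (0.85 ± 0.37, adjusted p = 0.24). PSBS went from 10.7, 10.3 and 15.2 CPM to 27.8, 18.1 and 23.6 CPM (0.93 ± 0.26, adjusted p = 0.049), a call lost without any 1 of 4 of the 6 libraries and with RLE size factors, total-count scaling or limma. LHCA5, with 7.43, 6.38 and 8.17 CPM against 11.5, 9.99 and 10.8 CPM, did not pass in that contrast (0.55 ± 0.16, adjusted p = 0.055), but passed with DESeq2 (adjusted p = 0.0263) and with the compared groups alone (adjusted p = 0.0271). Its response differed from that of Col-0 roots by 0.87 ± 0.23 (adjusted p = 0.034, where 2.3% of all loci differed upward), a call lost without any 1 of 9 of the 12 libraries and with limma. It was the 1 call among 41 loci in the main fit, near the share of all loci. More were called with the compared groups alone. The sums over the 42 loci were 1359.6, 1472 and 1791 CPM with sulfate and 2245, 1876 and 2343 CPM on low sulfate, without overlap. Those over the 9 Calvin-cycle genes were 190.2 to 284 CPM and 317 to 469 CPM, and those over the 7 leaf genes 0.224 to 0.67 CPM and 0.474 to 0.664 CPM, with 3 of the 7 at 0 in all libraries of each group. In Col-0 roots the sums over the 42 loci were 2193 to 2627 CPM with sulfate and 1937 to 2447 CPM on low sulfate. The eil3 eil1 +S sums lay below all of these, and the eil3 eil1 -S sums overlapped them. Levels of these genotypes in roots were not tested against each other.

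**Figure D5:**
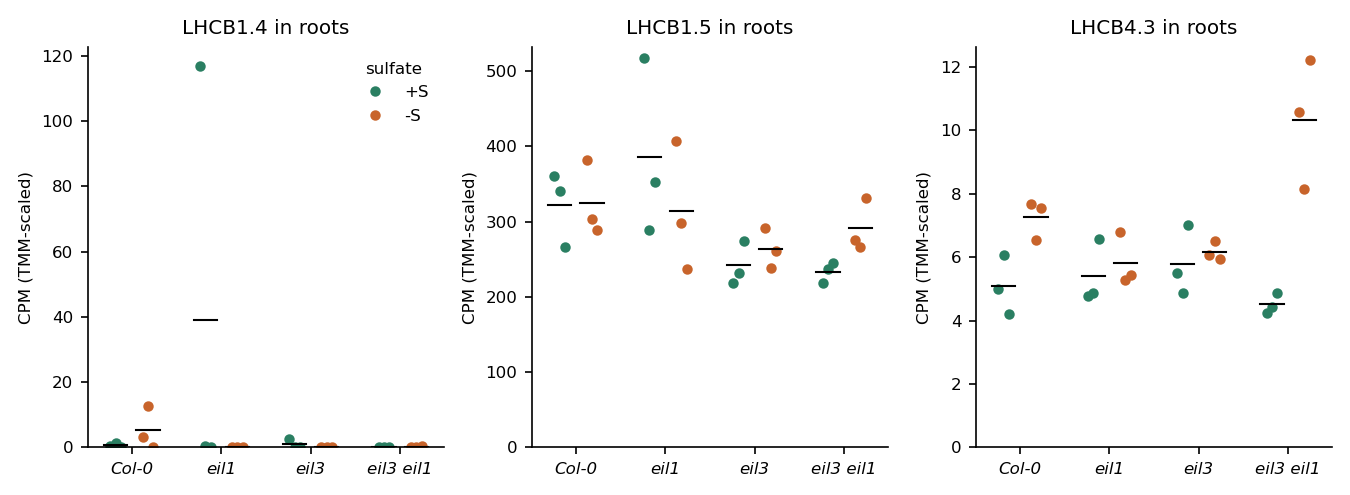
CPM of LHCB1.4, LHCB1.5 and LHCB4.3 in each root library by genotype as labelled; points are single libraries, green for +S and orange for -S, and lines are means of 3. LHCB1.4 is at or under 12.7 CPM except in 1 eil1-labelled +S library at 117 CPM, LHCB1.5 is between 219 and 517 CPM throughout, and LHCB4.3 is highest in the eil3 eil1 -S roots.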

How the data were processed

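RNA of shoots and roots was sequenced from libraries made with the TruSeq Stranded mRNA kit, per the labels' protocols. The deposited values are estimated counts and TPM per locus from the authors' kallisto run, and Trimmomatic 0.36, FastQC, kallisto 0.43.1 and the TAIR10 build are named in the submitters' processing notes. Estimated counts (7.79% not whole) were rounded before testing. Each organ's 24 libraries were fitted together with edgeR 4.0.16 (R 4.3.3; quasi-likelihood test, TMM scaling, edgeR's own filter on low counts, 8 groups), and organs were compared over the 12 Col-0 libraries. Every adjusted p in the text is from these fits, by the Benjamini-Hochberg method across the tested loci, with a threshold of 0.05; 22 comparisons were made. The SE was derived from the fold change and F and is approximate. The pipeline was tested on simulated counts. Alternatives were RLE size factors, total-count scaling, no count filter, DESeq2 1.42.0, a fit of the compared groups alone, limma 3.58.1 on log2 of TPM + 1, near-identical copies summed, a replicate block and each library left out. TPM, here and above, was computed from the rounded counts and the deposited effective lengths.

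The 42 loci and all gene lists were chosen with earlier results of these data known. Members with the most counts, the deepest and the shallowest Col-0 change of a role, a direction against their role, or the 6 smallest interaction p-values are given in full, and up to 4 genes of each other list with the smallest p in Col-0 shoots are named. Root columns carry the replicate numbers of the sample labels. Shoot columns give the group, and their numbers could not be tied to labelled replicates, so they serve as names. Replicates are 3 separate samples per group. The p-values rest on the spread between replicates within groups, estimated over all groups in a fit and not over the compared groups alone. Depth is given as total counts, and LHCA6 did not pass the filter on low counts in roots. Deviations of same-numbered root libraries from their group means correlated weakly (r from -0.182 to 0.204, median 0.03, over 84 pairs). In 40 of these pairs the own number was the best match of 3, and a shared replicate effect was not tested. Promoter sequence and gene models are those of RefSeq for TAIR10.1. Python 3.11.15, pandas 2.3.3, numpy 2.4.6 and matplotlib 3.10.9 were used for tables and figures.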

Additional observations from a re-analysis of the deposited data

Results flagged for a closer look

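The low-sulfate response of shoots differed between eil3 eil1 and Col-0 as labelled at 42 of 42 loci by edgeR's interaction test, where 16.9% of all loci had a more negative response in eil3 eil1. Of the 6 loci with the smallest p, the difference in log2 change was -3.11 for LHCB2.3, -1.63 for PSBQ2, -1.49 for LHCB4.2, -1.64 for LHCB3, -1.36 for LHCB1.2 and -1.20 for LHCA1. In roots the same genotypes differed at 1 of 41 loci, LHCA5, by 0.87 on the log2 scale, where 2.3% of all loci differed upward. That count is near the share of all loci, and the call was lost without any 1 of 9 libraries and with limma. With the compared groups alone more loci were called, as given below. Roots and shoots of Col-0 differed in their low-sulfate response at 10 of 42 loci, where 5.97% of all loci had a more positive response in roots. That count ranged from 1 to 19 with 1 library left out and was 0 with limma and 25 with DESeq2. Each was drawn out because the difference between groups was itself past the test's threshold.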

How the results depend on the processing

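With RLE size factors, total-count scaling, no count filter, DESeq2, the compared groups alone, limma and summed copies, the numbers of loci that fell in Col-0, eil3 and eil3 eil1 shoots stayed within 1.5 times the values given, as did the 42 that differed between the eil3 eil1 and Col-0 responses. In the low-sulfate responses of shoots and the eil3 eil1 difference from the Col-0 response, no called locus turned its direction under the alternatives run. Other shoot comparisons were not checked for direction locus by locus. Other counts moved, and the cause was not tested. With limma they were 6 in eil1 shoots, 9 for eil3 against Col-0 on low sulfate in shoots, 1 in Col-0 roots, 0 in eil1 roots, 1 in eil3 eil1 roots, 0 for the eil3 eil1 difference in root responses and 0 for the organ difference. With DESeq2 they were 8 for the eil3 difference in shoot responses, 1 for eil3 eil1 against Col-0 in +S shoots, 1 in Col-0 roots, 2 for the eil1 difference in root responses and 25 for the organ difference. With total-count scaling they were 21 for eil3 against Col-0 on low sulfate, 1 in eil3 eil1 roots and 6 for the organ difference. With the compared groups alone they were 10 for eil3 against Col-0 on low sulfate, 0 in eil1 roots, 13 in eil3 eil1 roots and 6 for the eil3 eil1 difference in root responses. Summed copies gave 2 in eil1 roots, RLE size factors 1 in eil3 eil1 roots, and no count filter 2 for the eil1 difference in root responses. The replicate block, run in roots alone, gave 0 in eil1 roots, and LHCA5 passed with it in eil3 eil1 roots (adjusted p = 0.0208). The labels do not say what same-numbered root libraries share, and 40 of 84 pairs had their own number as the best match of 3. No paired analysis was possible in shoots because the columns carry no labelled replicate number.

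With each library left out in turn, the count ranged from 3 to 20 in eil1 shoots, 0 to 11 for the eil3 difference in shoot responses, 3 to 38 for eil3 against Col-0 on low sulfate, 0 to 1 in Col-0 roots, 0 to 35 in eil1 roots, 1 to 3 in eil3 eil1 roots, 0 to 3 for the eil1 and 0 to 2 for the eil3 eil1 difference in root responses, and 1 to 19 for the organ difference. In Col-0 shoots it ranged from 33 to 40. At this depth LHCA6 could not be tested in roots.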
